A study of Mus musculus with 12 samples.

Results

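The genes of MHC class I antigen presentation were followed through chemotherapy in mouse acute myeloid leukaemia cells. The set was chosen by name and holds 10 genes of the 24344 gene symbols in the expression tables: the heavy chains H2-K1, H2-D1, H2-T22 and H2-T23, the light chain B2m, the peptide transporter subunits Tap1 and Tap2, the loading factor Tapbp, and the immunoproteasome subunits Psmb8 and Psmb9. The cells were MLL-AF9 transgenic, carried GFP and were sorted by it from bone marrow, and 1 RNA-seq library was made per mouse. The relapse group (n = 4) was sampled 10 days after the end of doxorubicin plus cytarabine, the iCT (induction chemotherapy) group (n = 3) was sampled 3 days after the end of the same drugs, and the vehicle group (n = 5) received vehicle. All 3 groups carry MLL-AF9 and GFP. For the mice, strain, age and sex were not given in the sources used here, nor were the promoter behind MLL-AF9 and the number of leukaemia clones. Values are Cufflinks FPKM. This unit divides a gene's fragments by its transcript length and by the library's total, so levels of different genes can be set side by side.

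MHC class I molecules show peptides from inside a cell to CD8 T cells and to natural killer cells. The immunoproteasome, in which Psmb8, Psmb9 and Psmb10 take the place of the constitutive catalytic subunits, cuts proteins into peptides. The TAP transporter, a dimer of Tap1 and Tap2, carries them into the endoplasmic reticulum, and tapasin, encoded by Tapbp, bridges TAP to the empty class I molecule. The heavy chain then leaves for the surface with peptide and beta-2 microglobulin, the product of B2m. H2-K1 and H2-D1 encode the classical heavy chains. H2-T23 encodes Qa-1, which is read by CD94/NKG2 receptors, and H2-T22 encodes a non-classical chain read by some gamma delta T cells. In many cell types interferons raise transcription of these genes, through the IRF factors and through the coactivator Nlrc5.

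The genes lie together on chromosome 17, with the exception of B2m. In GRCm38 coordinates H2-K1 spans chr17:33996012-34000333 on the minus strand and H2-D1 spans chr17:35263094-35267497 on the plus strand. Psmb9 (chr17:34182099-34187330) and Tap1 (chr17:34187556-34197225) are transcribed away from each other, and B2m lies at chr2:122147687-122153082. All 10 are protein-coding genes in GENCODE M21. Promoter sequences of RefSeq (GRCm38.p6, 250 bases before each transcription start) were found by symbol for 9 of the 10 genes, all but Tap2. The stretches below are shown because the genes described here share regulatory motifs in them, and each runs 5′ to 3′ on the strand of its gene, or on the strand of Tap1 where Tap1 and Psmb9 share a stretch. Capitals mark 4 motifs searched on both strands. They are a kappa B site (GGGGATTCC), an interferon response element of 9 letters (GAAANNGAA or GAANNGAAA, which can overlap each other), a CRE core (TGACG) and a CCAAT box (CCAAT).
H2-K1: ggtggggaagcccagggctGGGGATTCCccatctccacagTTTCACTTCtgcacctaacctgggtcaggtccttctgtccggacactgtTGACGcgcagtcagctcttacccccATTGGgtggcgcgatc
H2-D1: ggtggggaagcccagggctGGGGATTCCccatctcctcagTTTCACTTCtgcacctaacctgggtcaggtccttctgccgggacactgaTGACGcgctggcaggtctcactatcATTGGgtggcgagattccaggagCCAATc
H2-T23: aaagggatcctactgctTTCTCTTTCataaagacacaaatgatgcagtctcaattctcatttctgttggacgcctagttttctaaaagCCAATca
H2-T22: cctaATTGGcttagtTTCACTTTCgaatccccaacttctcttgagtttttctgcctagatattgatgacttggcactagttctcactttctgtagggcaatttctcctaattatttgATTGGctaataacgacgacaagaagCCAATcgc
B2m: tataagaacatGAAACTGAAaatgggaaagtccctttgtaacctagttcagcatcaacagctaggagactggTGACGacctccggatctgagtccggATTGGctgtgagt
Tap1 and Psmb9: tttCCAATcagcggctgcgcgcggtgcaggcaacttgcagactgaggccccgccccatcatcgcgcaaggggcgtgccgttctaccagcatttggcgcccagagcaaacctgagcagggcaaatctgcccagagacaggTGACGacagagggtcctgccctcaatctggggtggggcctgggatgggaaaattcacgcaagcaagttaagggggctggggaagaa
The stretches lie at chr17:34000348-34000477 (minus strand) for H2-K1, chr17:35262904-35263046 (plus) for H2-D1, chr17:36032747-36032841 (minus) for H2-T23, chr17:36042798-36042947 (minus) for H2-T22 and chr2:122147537-122147646 (plus) for B2m. The stretch for Tap1 and Psmb9, chr17:34187331-34187555 on the plus strand, is the whole 225 bases between their RefSeq starts, so a single stretch lies before both genes.

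Among the promoters shown, H2-K1 and H2-D1 were near copies of each other, with 117 of 130 bases (90.0%) equal without gaps. The kappa B site was found in 2 of the 9 promoters, those of H2-K1 and H2-D1, against 0.213% of all 32851 promoters in the table. The interferon response element was found in 5 of the 9, those of the 4 heavy chains and B2m, against 12.5% of all promoters. The CRE core was found in 6 of the 9 (17.8% of all) and the CCAAT box in 8 of the 9 (33.8% of all). In Tap1 and Psmb9 these 2 motifs are the same sites of the shared stretch, counted for each gene, so the promoters counted are not all separate. A match says only that these letters are present.

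The libraries differed in depth, and iCT mouse 1 stood apart. The confidence intervals in the tables implied 356809 fragments in iCT mouse 1 and 1221511 to 8356025 in the other 11 libraries, and 10479 genes were above 0 in it, against 12439 to 14580. For the class I genes other than H2-T22 the implied fragments were 22.8 to 323 in iCT mouse 1 and 209 to 15546 in the others. The leukaemia markers of the list used (Hoxa9, Hoxa10, Meis1, Mpo, Itgam, Kit, Ptprc, Cebpa) were present in every group, with summed levels of 2141 to 4076 FPKM in relapse, 2445 to 2911 in iCT and 2176 to 3358 in vehicle. Mpo made up most of these sums (mean 2822, 2414 and 2786 FPKM in the same order), so they show little of the other markers. The summed T and NK cell markers were at 8.13 to 21.6 FPKM in relapse, 9.36 to 31.5 in iCT and 18.8 to 29.9 in vehicle, of which Nkg7 made up most, with Ncr1 at 0 in every relapse library. The summed endothelial and stromal markers were at 12.2 to 26.3 FPKM in relapse, 10.4 to 12.5 in iCT and 11.8 to 28.6 in vehicle, with Pecam1 among the highest and Kdr at 0 in every relapse and iCT library. In a limma fit of all 12 libraries on log2(FPKM + 1), 11019 genes were tested, and all 10 class I genes passed the filter of at least 1 FPKM in at least 3 libraries.

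**Figure D1:**
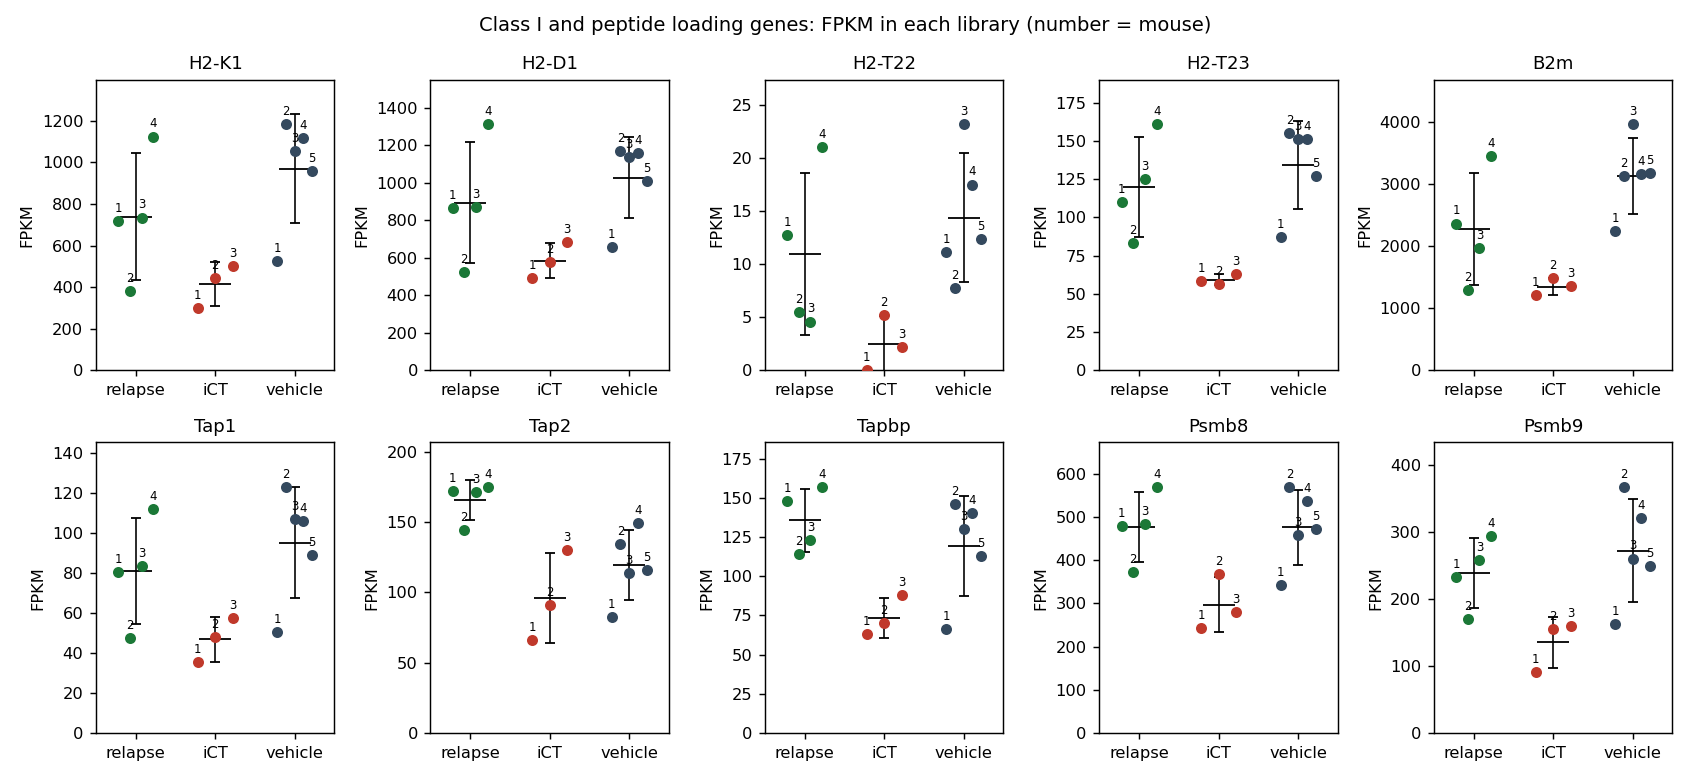
FPKM (vertical axis, from 0) of the 10 class I genes in relapse, iCT and vehicle libraries. Each point is a library with its mouse number, and bars give the mean and SD, which end at 0 where the SD exceeds the mean; B2m lay at 1213 to 1482 FPKM in iCT mice, below all vehicle mice.

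The comparison of iCT with vehicle, 3 days after chemotherapy, showed lower class I transcripts. Of the 10 genes 6 fell, namely H2-K1, H2-T22, H2-T23, B2m, Psmb8 and Psmb9, at an adjusted p under 0.05 by limma, and none rose. The difference was negative for all 10, and 9 had an unadjusted p under 0.05, as did 3282 of all 11019 genes in either direction. Over all genes tested, 6.31% were called lower and 3.31% higher. The median log2 difference was -0.98 over the 10 genes and -0.08 over all 11019. In 5 of the 10 every iCT mouse lay below every vehicle mouse, as did 10.6% of all genes. In bulk RNA, fewer cells that express a gene and less RNA per cell cannot be told apart.

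Of the heavy chains, H2-K1 had 299, 442 and 503 FPKM in iCT mice 1 to 3, against 524, 1185, 1057, 1119 and 960 FPKM in vehicle mice 1 to 5. The groups did not overlap, although vehicle mouse 1 was only just above the highest iCT mouse. The log2 difference was -1.20 (SE 0.33, adjusted p = 0.0388), a fold of 0.435. H2-D1 had 494, 578 and 683 FPKM in iCT mice and 657, 1168, 1138, 1159 and 1010 FPKM in vehicle mice. These groups overlapped at vehicle mouse 1, and the difference of -0.79 (SE 0.26) did not pass (adjusted p = 0.0709). H2-T23, the Qa-1 gene, had 58.5, 56.2 and 62.9 FPKM in iCT mice and 87, 155, 151, 151 and 127 FPKM in vehicle mice. It had the smallest adjusted p of the 10 genes (log2 difference -1.14, SE 0.21, adjusted p = 0.00794), and its iCT mice were close together. The value of iCT mouse 1 had an interval of 35.7 to 81.4 FPKM, which is wider than the range of the iCT mice.

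H2-T22 was listed at 0.00245, 5.21 and 2.23 FPKM in iCT mice and at 11.1, 7.71, 23.2, 17.5 and 12.4 FPKM in vehicle mice. Its fitted log2 difference of -2.41 (SE 0.57, adjusted p = 0.0231) is uncertain, because its locus overlaps the entry H2-T9, a closely related gene, and the share of the summed level given to H2-T22 ran from 0.0281% in iCT mouse 1 to 34% in relapse mouse 4. The 2 entries summed, a choice made after the data were seen, gave 8.72, 27.9 and 28.8 FPKM in iCT mice and 33.8, 70.8, 69.4, 61.9 and 52.6 FPKM in vehicle mice. On that sum the log2 difference was -1.49 (SE 0.37, adjusted p = 0.0281), and every iCT mouse was below every vehicle mouse. H2-D1 also overlaps an entry, H2-L, which held 42.1 to 102 FPKM in iCT and 57.3 to 238 FPKM in vehicle, and the sum left its difference at -0.82 (SE 0.27, adjusted p = 0.0741).

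B2m, the common light chain, was the most abundant transcript of the set. It had 1213, 1482 and 1353 FPKM in iCT mice and 2240, 3138, 3974, 3163 and 3184 FPKM in vehicle mice. The groups were separated by a wide gap, and the mean was 1349 ± 134 FPKM in iCT and 3140 ± 614 in vehicle (SD, n = 3 and 5). The log2 difference was -1.20 (SE 0.25, adjusted p = 0.0145), and by mean FPKM the gene ranked 112th of 11019 in iCT and 62nd in vehicle.

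The transporter and tapasin were lower on average without passing the test. Tap1 had 35.2, 47.9 and 57.5 FPKM in iCT mice and 50.3, 123, 107, 106 and 89.1 FPKM in vehicle mice, and only vehicle mouse 1 lay within the iCT range (log2 difference -0.97, SE 0.30, adjusted p = 0.0591). Tapbp had 62.9, 70.1 and 87.7 FPKM in iCT and 66.3, 146, 130, 140 and 113 FPKM in vehicle, again with vehicle mouse 1 inside the iCT range (-0.65, SE 0.23, adjusted p = 0.085). Tap2 had the smallest difference of the 10 genes. It had 66.2, 91.1 and 130 FPKM in iCT and 82.7, 134, 114, 149 and 116 FPKM in vehicle, so the groups overlapped broadly (-0.34, SE 0.21, adjusted p = 0.285).

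The immunoproteasome subunits Psmb8 and Psmb9 fell. Psmb9 had 91.5, 155 and 159 FPKM in iCT mice and 163, 367, 260, 320 and 249 FPKM in vehicle mice, with no overlap (-1.0, SE 0.26, adjusted p = 0.0334). Psmb8 had 243, 367 and 280 FPKM in iCT and 342, 570, 459, 536 and 473 FPKM in vehicle, with iCT mouse 2 above vehicle mouse 1 (-0.68, SE 0.18, adjusted p = 0.0362).

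Most of these calls depended on single libraries. H2-T23 and B2m were called without each of the 12 libraries in turn. Without vehicle mouse 1, all genes but Tap2 were called lower (9 of 10), where 5.06% of all genes were called lower. Without iCT mouse 1 only H2-T23 and B2m were called (2 of 10), and the count was 2 or 3 without any of vehicle mice 2 to 5. Calls over all genes dropped too, from 695 of 11019 called lower to 455 of 10961 without iCT mouse 1. Without any of vehicle mice 2 to 5 they were 375 to 466. The sign stayed negative for all 10 genes in each of these fits.

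**Figure D2:**
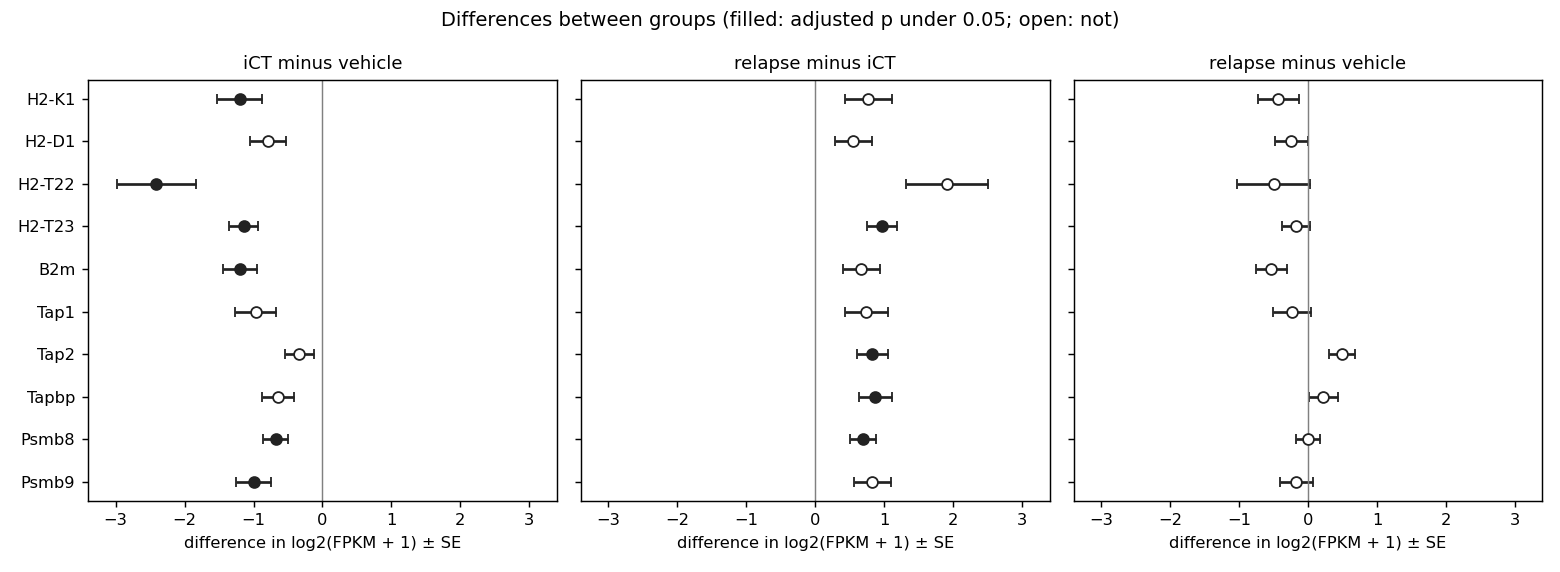
Difference in log2(FPKM + 1) ± SE (horizontal axis) for the 10 genes in iCT minus vehicle, relapse minus iCT and relapse minus vehicle, from limma. Filled points passed an adjusted p of 0.05: 6 genes in iCT minus vehicle, 4 in relapse minus iCT and 0 in relapse minus vehicle.

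Relapse against iCT compares the leukaemia 10 days and 3 days after the drugs. It shares the iCT libraries with the comparison above, so the directions of the comparisons are linked by design. Of the 10 genes 4 rose in relapse, namely H2-T23, Psmb8, Tap2 and Tapbp, where 6.62% of all genes were called higher and 3.1% lower. All 10 differences were positive, with a median of 0.80, and the median over all genes was itself 0.16. After median-of-ratios scaling these medians were 0.68 and 0.06, and 3 genes were called, without Psmb8. In 5 of the 10 genes every relapse mouse lay above every iCT mouse, as in 16.9% of all genes.

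Tapbp had 148, 114, 123 and 157 FPKM in relapse mice 1 to 4, against 62.9, 70.1 and 87.7 FPKM in iCT mice (log2 difference 0.87, SE 0.24, adjusted p = 0.0367). The lowest relapse mouse was well above the highest iCT mouse. Tap2 had 172, 144, 171 and 175 FPKM in relapse and 66.2, 91.1 and 130 FPKM in iCT, also without overlap (0.83, SE 0.22, adjusted p = 0.0329). H2-T23 had 110, 83.1, 125 and 161 FPKM in relapse and 58.5, 56.2 and 62.9 FPKM in iCT, and the groups did not overlap (0.97, SE 0.22, adjusted p = 0.0196). Psmb8 had 478, 372, 483 and 570 FPKM in relapse and 243, 367 and 280 FPKM in iCT, with relapse mouse 2 only just above iCT mouse 2 (0.69, SE 0.19, adjusted p = 0.0412).

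The classical heavy chains and B2m were more variable in relapse. H2-K1 had 716, 383, 735 and 1125 FPKM in relapse and 299, 442 and 503 FPKM in iCT (0.77, SE 0.34, adjusted p = 0.161), and relapse mouse 2 lay inside the iCT range. H2-D1 had 866, 524, 871 and 1313 FPKM in relapse and 494, 578 and 683 FPKM in iCT (0.55, SE 0.27, adjusted p = 0.196). B2m had 2368, 1302, 1979 and 3465 FPKM in relapse and 1213, 1482 and 1353 FPKM in iCT (0.67, SE 0.27, adjusted p = 0.123). In all 3 genes relapse mouse 4 was the highest and relapse mouse 2 overlapped the iCT mice. Tap1 (0.74, adjusted p = 0.145), Psmb9 (0.83, adjusted p = 0.0724) and H2-T22 (1.91, adjusted p = 0.0618, or 1.03 and 0.111 summed with H2-T9) did not pass either. These counts too rested on few mice. Only H2-T23 was called without iCT mouse 1, without vehicle mouse 5 or without relapse mouse 1 (1 of 10), and 0 of 10 without relapse mouse 3 or without relapse mouse 4. Over all genes, 577 of 10961, 528 of 10986, 375 of 10959, 382 of 10967 and 335 of 10958 were called higher in these fits, in that order. In the main fit it was 729 of 11019.

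Relapse against vehicle asks whether the leukaemia that returned differed from untreated leukaemia. None of the 10 genes passed (0 of 10), and 0% of all genes did, while 14.6% had an unadjusted p under 0.05. In a fit of these groups alone 5.65% of all genes passed, and still 0 of the 10. The relapse and vehicle ranges overlapped in all 10 genes, and 13.7% of all genes had ranges that did not. Psmb8 averaged 476 ± 81.2 FPKM in relapse and 476 ± 87.7 FPKM in vehicle (SD, n = 4 and 5), with a log2 difference of 0.00 (SE 0.17). B2m averaged 2278 ± 905 FPKM in relapse and 3140 ± 614 FPKM in vehicle (-0.53, SE 0.23, adjusted p = 0.328). Tap2 averaged 165 ± 14.6 FPKM in relapse and 119 ± 24.9 FPKM in vehicle (0.49, SE 0.19, adjusted p = 0.266). B2m and Tap2 were the 2 of the 10 with an unadjusted p under 0.05, and their differences had opposite signs. The other differences ran from -0.50 (H2-T22, SE 0.53) to 0.22 (Tapbp, SE 0.21), with -0.43 for H2-K1 (SE 0.30), so with these errors a moderate difference could not be told from none.

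The genes rose and fell together between mice of a group. Vehicle mouse 1 was the lowest of the 5 vehicle mice in 9 of the 10 genes, all but H2-T22, and was the lowest in 35.9% of all genes tested. Relapse mouse 2 was the lowest relapse mouse in 9 of the 10 (28.1% of all genes), and relapse mouse 4 was the highest in 10 of the 10 (35.3% of all genes). Over the 12 libraries the Pearson correlation of log2(FPKM + 1) was 0.989 between H2-K1 and H2-D1, 0.986 between H2-K1 and Tap1, 0.965 between Tap1 and Psmb9, which share a promoter region, and 0.957 between Psmb8 and Psmb9. Tap2 followed the heavy chains and the light chain B2m least, at 0.585 with H2-K1 and 0.384 with B2m. These correlations include the differences between groups and share each library's depth, and without iCT mouse 1 (11 libraries) they were 0.99, 0.981, 0.964, 0.931, 0.367 and 0.145 in the same order.

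Outside the set, the genes most like H2-K1 over the 12 libraries were Gm8909 (r = 0.990), H2-Q1 (0.987), H2-Q10 (0.983), Gm7030 (0.979) and H2-T10 (0.978). Without iCT mouse 1 the values were 0.985, 0.983, 0.979, 0.980 and 0.990. The named class I paralogs among them resemble H2-K1 in sequence, and reads can be shared between paralogs, so a likeness between such genes is uncertain. Among the genes most like B2m were H2-Q4 (0.921), Cfap74 (0.920), Gm8909 (0.920) and the cytoplasmic actin gene Actg1 (0.915), and without iCT mouse 1 they had r = 0.903, 0.900, 0.904 and 0.893. With that mouse left out, none of them was still among the genes closest to B2m. H2-Q10 and Gm7030 likewise left the genes closest to H2-K1, so these rankings are not stable.

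The Tap2 to Tap1 ratio, looked at after the values were seen, is given without a test. It was 2.13, 3.03, 2.05 and 1.57 in relapse mice, 1.88, 1.90 and 2.26 in iCT mice, and 1.65, 1.09, 1.07, 1.41 and 1.30 in vehicle mice. All iCT mice lay above all vehicle mice, and relapse mouse 4 was inside the vehicle range. In relapse mouse 2 Tap1 was at 47.4 FPKM and Tap2 at 144 FPKM.

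**Figure D3:**
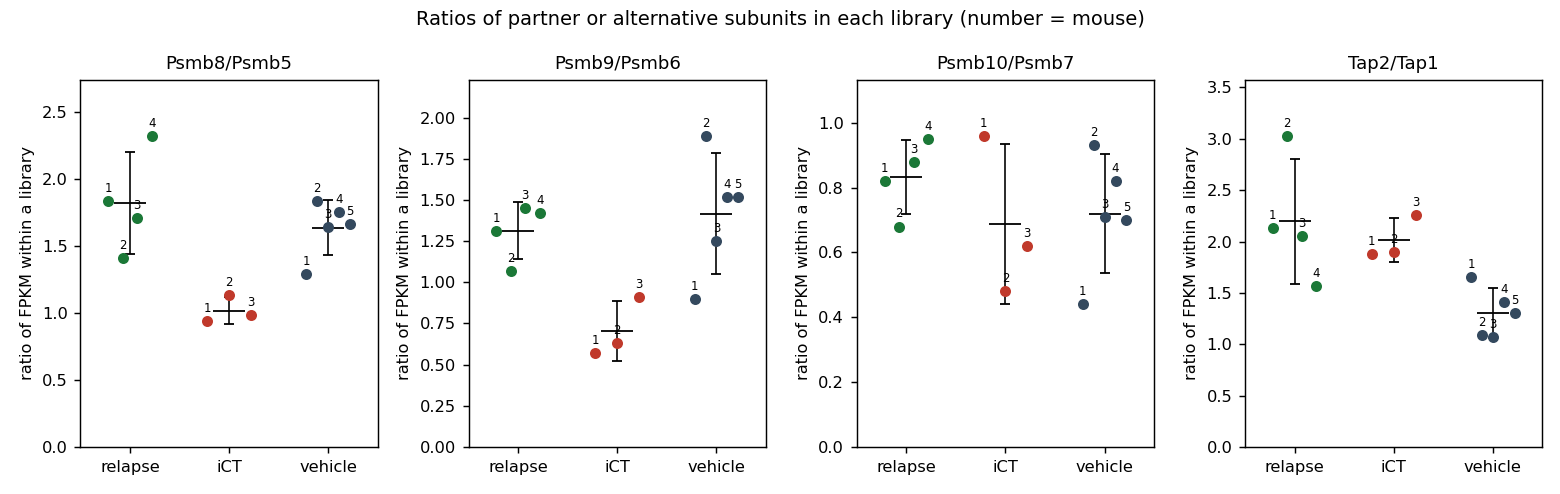
Ratio of FPKM within a library (vertical axis, from 0) for immunoproteasome over constitutive catalytic subunits and for Tap2 over Tap1, in relapse, iCT and vehicle. Points are libraries with their mouse number and bars are mean and SD; Psmb8/Psmb5 was 0.94 to 1.13 in iCT, below every relapse and every vehicle mouse.

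Each inducible catalytic subunit was set against the constitutive subunit it replaces, as a ratio within a library. Psmb8/Psmb5 was 1.83, 1.41, 1.71 and 2.32 in relapse mice, 0.94, 1.13 and 0.98 in iCT mice, and 1.29, 1.83, 1.64, 1.75 and 1.66 in vehicle mice. The iCT mice were the 3 lowest of the 12. The log2 ratio was 0.02 ± 0.14 in iCT and 0.70 ± 0.20 in vehicle (SD, n = 3 and 5), a difference of -0.68 with a two-sided exact permutation p of 0.0357, the smallest this design allows. Relapse against iCT differed by 0.82 (exact permutation p = 0.0571, also the smallest possible). Psmb9/Psmb6 was 1.31, 1.07, 1.45 and 1.42 in relapse, 0.57, 0.63 and 0.91 in iCT, and 0.90, 1.89, 1.25, 1.52 and 1.52 in vehicle, where vehicle mouse 1 overlapped iCT. Its log2 ratio differed by -1.0 between iCT and vehicle (exact permutation p = 0.0714) and by 0.92 between relapse and iCT (exact permutation p = 0.0571). Psmb10/Psmb7 overlapped in all groups, with 0.68 to 0.95 in relapse, 0.48 to 0.96 in iCT and 0.44 to 0.93 in vehicle, and differed by -0.09 between iCT and vehicle (exact permutation p = 0.786). Adjusted over the 9 ratio tests, the lowest exact permutation p was 0.161, so no ratio passed.

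The constitutive subunits gave no call in iCT against vehicle. Psmb5 had 259, 325 and 286 FPKM in iCT mice and 265, 312, 281, 306 and 285 FPKM in vehicle mice, and Psmb6 differed by 0.00 (SE 0.14). Of 15 genes of the constitutive 20S proteasome and its assembly, 0 rose and 0 fell in iCT against vehicle, with a median log2 difference of -0.03. In relapse against iCT, Psmb2 was the 1 gene called, lower by the fit (-0.36, SE 0.11, adjusted p = 0.0487). Pomp, a proteasome assembly factor, differed by -0.37 between iCT and vehicle (adjusted p = 0.145).

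Of 13 other genes of peptide supply and loading, Psme1, a subunit of the PA28 proteasome activator, fell in iCT against vehicle. It had 136, 229 and 196 FPKM in iCT mice and 235, 346, 319, 313 and 285 FPKM in vehicle mice (-0.70, SE 0.17, adjusted p = 0.0232), and it rose in relapse against iCT (0.61, SE 0.17, adjusted p = 0.0447). The list's median difference was -0.23 in iCT against vehicle. Erap1, which trims peptides in the endoplasmic reticulum, had a difference of -0.65 (adjusted p = 0.0579), and the third immunoproteasome subunit Psmb10 had -0.38 (adjusted p = 0.225). The chaperone gene Calr had 1243, 1521 and 1507 FPKM in iCT and 1187 to 1474 FPKM in vehicle (0.05, SE 0.10). Canx, another lectin chaperone, had -0.52 (adjusted p = 0.0506). In relapse against vehicle the smallest p of the list belonged to the oxidoreductase gene Pdia3 (-0.34, adjusted p = 0.225) and to Canx (-0.29, adjusted p = 0.363).

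Other class I heavy chains were also lower in iCT on average. Of 17 listed, 12 were tested, all 12 had a negative difference in iCT against vehicle (median -1.06) and 2 fell. H2-Q2 had 2.40, 5.01 and 6.42 FPKM in iCT and 6.10, 11.1, 12.1, 12 and 10.6 FPKM in vehicle (adjusted p = 0.0456), and H2-Q10 had 5.33, 6.65 and 7.37 FPKM in iCT and 7.46, 16.2, 14.7, 16.3 and 13.4 FPKM in vehicle (adjusted p = 0.0465). Because these paralogs can share reads with H2-K1 and H2-D1, their values are uncertain and are not separate evidence. H2-M3, whose product presents formylated peptides, was at 0, 5.19 and 7.02 FPKM in iCT and at 9.46 to 15.1 FPKM in vehicle (adjusted p = 0.0551). In relapse against iCT none of the 12 passed, with H2-M3 at 1.62 (adjusted p = 0.1) and H2-K2 at 0.88 (adjusted p = 0.124), and in relapse against vehicle H2-Q7 (-0.39, adjusted p = 0.501) and H2-T9 (-0.43, adjusted p = 0.59) had the smallest p. Of the class I-like molecules, 6 listed and 4 tested, Fcgrt, the neonatal Fc receptor chain that also pairs with B2m, rose in iCT. It had 7.83, 7.21 and 10.6 FPKM in iCT and 1.83, 7.29, 3.8, 2.64 and 2.56 FPKM in vehicle (1.14, SE 0.29, adjusted p = 0.0299), and vehicle mouse 2 was inside the iCT range. Cd1d1, a lipid-presenting molecule, had a difference of 0.43 in relapse against iCT (adjusted p = 0.171).

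**Figure D4:**
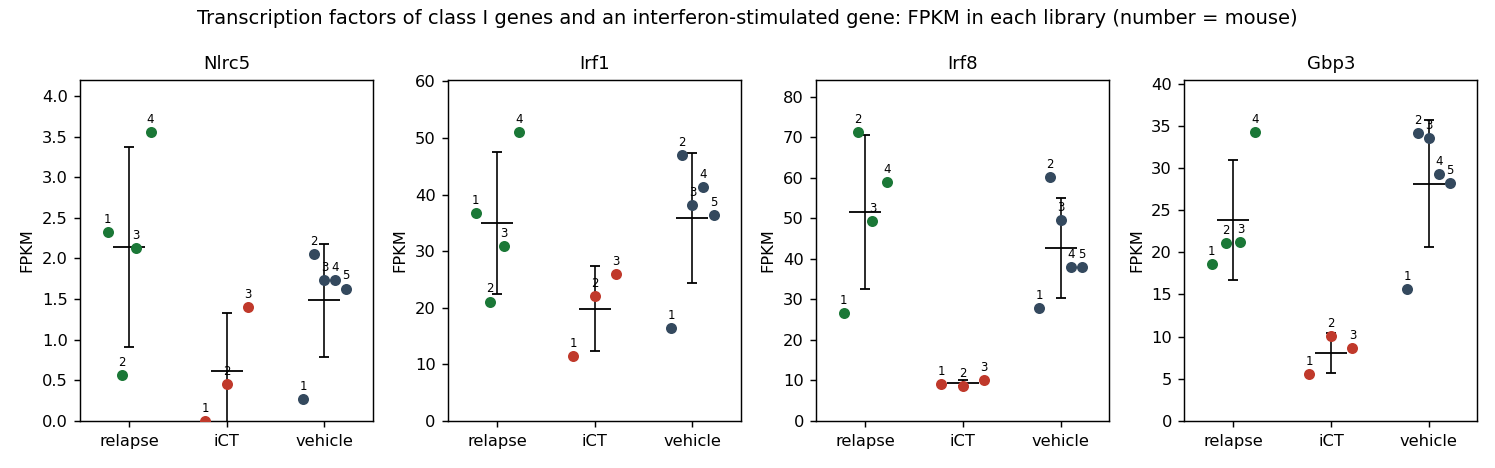
FPKM (vertical axis, from 0) of Nlrc5, Irf1, Irf8 and Gbp3 in relapse, iCT and vehicle. Points are libraries with their mouse number and bars are mean and SD, which end at 0 where the SD exceeds the mean; Irf8 lay at 8.67 to 10.06 FPKM in iCT, below all relapse and vehicle mice.

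Among 14 transcription factors of class I genes, those that fell in iCT against vehicle included Irf8 and Nfya, none rose, and the list median was -0.47. Irf8, a myeloid member of the interferon regulatory factors, had 9.10, 8.67 and 10.06 FPKM in iCT mice and 27.8, 60.2, 49.5, 38.1 and 37.9 FPKM in vehicle mice (-2.04, SE 0.29, adjusted p = 0.00158). Nfya, a subunit of the CCAAT-binding factor NF-Y, had a difference of -0.55 (adjusted p = 0.0368). Irf8, Irf2, Nfkb1 and Nfya rose in relapse against iCT, by 2.27 (adjusted p = 0.0016), 0.93 (0.0205), 0.41 (0.0358) and 0.54 (0.0454), and no gene of the list fell. Nlrc5 was close to the lower limit of the data, at 2.32, 0.56, 2.13 and 3.56 FPKM in relapse, 0, 0.457 and 1.40 FPKM in iCT and 0.27, 2.05, 1.73, 1.74 and 1.63 FPKM in vehicle, and did not pass (-0.65 in iCT against vehicle, adjusted p = 0.275). Irf1 had 11.4, 22.1 and 26 FPKM in iCT and 16.5, 47, 38.1, 41.3 and 36.4 FPKM in vehicle (-0.82, adjusted p = 0.145). Both genes were lowest in relapse mouse 2 among relapse mice and in vehicle mouse 1 among vehicle mice, as were most of the class I genes. In relapse against vehicle, Nfkb1 (0.32, adjusted p = 0.182) and Rela (0.36, adjusted p = 0.23) had the smallest p.

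In iCT against vehicle most interferon genes had a negative difference, though few passed. Of 12 receptor and signalling genes 10 were negative, with a median log2 difference of -0.46, against -0.08 over all genes. Those that fell included Ifngr1, a chain of the interferon gamma receptor. It had 118, 134 and 128 FPKM in iCT and 202, 164, 184, 169 and 194 FPKM in vehicle (-0.52, SE 0.10, adjusted p = 0.0093). Socs3, a feedback inhibitor of cytokine signalling, rose to 6.67, 1.11 and 2.57 FPKM in iCT, against 0.148 to 0.709 FPKM in vehicle (1.47, adjusted p = 0.0231). Against iCT, relapse mice had higher Ifngr1 (0.40, adjusted p = 0.0349) and lower Socs3 (-1.50, adjusted p = 0.0249). In relapse against vehicle Jak1 (0.31, adjusted p = 0.412) and Ifnar1 (0.35, adjusted p = 0.518) had the smallest p. Of 22 interferon-stimulated genes 20 were tested. In iCT against vehicle 18 of them had a negative difference, and 2 fell and 0 rose (median -0.47). In relapse against iCT 9 of the 20 were positive and 11 negative. In relapse against vehicle 19 of the 20 were negative and 0 passed, with a median of -0.48, against 0.06 over all genes. Gbp3, a guanylate-binding protein gene, had 5.51, 10.15 and 8.66 FPKM in iCT and 15.6, 34.1, 33.6, 29.3 and 28.2 FPKM in vehicle (-1.67, SE 0.27, adjusted p = 0.00369), and Ifit2 had a difference of -0.68 (adjusted p = 0.0323). In relapse against iCT Gbp3 rose (1.44, adjusted p = 0.0104) and Ifit3 fell (-1.97, adjusted p = 0.0104). Ifit3 was at 0.585, 1.25, 0.994 and 0.972 FPKM in relapse, 13.1, 2.51 and 7.85 FPKM in iCT and 1.84, 3.31, 4.15, 3.58 and 2 FPKM in vehicle, so its order across the groups was unlike that of the class I genes. Rsad2 had the smallest p of this list in relapse against vehicle (-0.80, adjusted p = 0.194). Across the 7 lists, none of the genes tested passed in relapse against vehicle.

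Markers of other cell types moved with the iCT group. Of 7 tissue macrophage markers, 5 were higher in iCT than in vehicle (C1qa, C1qb, C1qc, Mrc1, Cd5l), Adgre1 was lower and Vcam1 did not pass (-0.40, adjusted p = 0.19). The 7 markers summed to 100 to 122 FPKM in relapse, 150 to 275 in iCT and 141 to 186 in vehicle. Vcam1 and Adgre1 made up most of the sums in relapse and vehicle, so the sums show little of the genes that rose. C1qa, for example, averaged 1.55 FPKM in relapse, 43.6 in iCT and 4.87 in vehicle. Of 5 osteoclast markers 4 were tested and all 4 were higher in iCT, with sums of 14.2 to 75.6 FPKM in relapse, 139 to 638 in iCT and 10.8 to 26.5 in vehicle, where Calcr and Dcstamp were at 0 in every library. Of 5 monocyte markers, Ly6c2, Ccr2 and Ms4a6c were lower in iCT, with sums of 971 to 2101 FPKM in relapse, 596 to 681 in iCT and 2229 to 2446 in vehicle. Kit and Cebpa of the leukaemia list were also lower in iCT than in vehicle. Of the other lists, 0 of 6 mature neutrophil, 0 of 3 dendritic cell, 0 of 2 T and NK cell and 0 of 2 B and plasma cell genes tested passed in iCT against vehicle, and of 3 endothelial and stromal genes Pecam1 was lower. Of 3 erythroid entries tested, both loci of the alpha-globin gene Hba-a1 were lower in iCT than in vehicle (-3.31, adjusted p = 0.0272, and -3.91, adjusted p = 0.0207), and Klf1 did not pass (-0.67, adjusted p = 0.152). The erythroid sum, with both loci of Hba-a1, was 15.8 to 122 FPKM in relapse, 2.86 to 12.3 in iCT and 10.5 to 189 in vehicle. The 2 loci of Hba-a1 summed were lowest in vehicle mouse 1 among vehicle mice (10.2 FPKM). Among relapse mice they were lowest in mouse 2 (13.2 FPKM) and highest in mouse 4 (119 FPKM). These were the same mice as for most of the class I genes. The iCT mice went the other way, with the Hba-a1 sum highest in mouse 1 (12.3 FPKM, against 2.39 and 3.03). That mouse was the lowest iCT mouse in 9 of the 10 class I genes and in 49.7% of all genes tested. The part of these shifts in the class I differences was not tested. The class II genes H2-Aa and H2-Ab1, of the dendritic cell list, did not pass in iCT against vehicle (0.91, adjusted p = 0.336, and 0.25, adjusted p = 0.758), and the difference between class I and class II genes was not tested.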

How the data were processed

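RNA-seq was done on GFP+ MLL-AF9 leukaemia cells of 12 mice. The authors deposited Cufflinks gene tables of FPKM with 95% interval bounds, per the file headers, and STAR and Cufflinks made them, per the submitters' processing notes, which name mm9. Options, strand and multi-mapped reads were not given in the sources used here. Of 23028 symbols 22890 (99.4%) overlapped the GRCm38 gene of that name, so coordinates are given as GRCm38, with 1 added to the files' starts. Each table had 24883 entries, and 2 failed entries were left out. FPKM divides by the library total, so abundant genes move all others, and paralogs share reads.

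Implied fragments are the squared ratio of FPKM to its SD, with the interval taken as 2 SD on each side, and cover counting error only. The main fit was limma 3.58.1 (R 4.3.3) on log2(FPKM + 1), which understates changes of low genes, with group means, a variance trend and Benjamini-Hochberg adjustment over 11019 genes at 0.05. Ratios were tested with scipy 1.17.1. The fit was tested on simulated data. The class I genes, lists and tests were chosen with earlier results of these data known. Named genes outside the set were, per list and comparison, up to 4 called or up to 2 with the smallest p, plus Nlrc5, Irf1, Psmb10, Psmb5, Psmb6, Psmb7, Calr and Erap1. Some genes that the rule and lists hold are not reported here. The alternatives were other pseudocounts, filters, scalings, weights and models, and the omission of each library. Titles number separate mice, and equal numbers in different groups are only names.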

Additional observations from a re-analysis of the deposited data

Results flagged for a closer look

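Of 116 sets of 4 or 5 values examined (each class I gene, named gene and ratio in relapse and in vehicle), 7 had a mouse far from the others, and chance flags about 1 in 20 such sets. The only class I gene was Tap2, at 144 FPKM in relapse mouse 2, against 171 to 175 FPKM in the other relapse mice. In vehicle mouse 1, H2-Q2 was at 6.10 FPKM (10.6 to 12.1 in the other vehicle mice), H2-Q4 at 30.8 FPKM (66.7 to 79.5) and Nlrc5 at 0.27 FPKM (1.63 to 2.05). In relapse mouse 4, Psmb2 was at 245 FPKM (203 to 207 in the other relapse mice) and Gbp3 at 34.3 FPKM (18.6 to 21.2). Nfya was at 24 FPKM in relapse mouse 3 (31.3 to 32.4 in the others).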

How the results depend on the processing

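The number of class I genes called in iCT against vehicle (6) was 2 with no filter, 1 with array weights and 1 with the replicate block, and 2 to 9 when a library was left out. Over all genes, 492 of 16621, 313 of 11019 and 129 of 11019 were called lower under these first alternatives, against 695 of 11019 in the main fit. In relapse against iCT the class I count (4) was 1 with no filter, 0 with array weights, 1 in a fit of only the groups compared, 0 with the replicate block, and 0 to 5 when a library was left out. Over all genes, 551 of 16621, 366 of 11019, 148 of 10719 and 200 of 11019 were called higher under the first of these, against 729 of 11019. In relapse against vehicle the class I count was 0 under every alternative run, while array weights called 971 of all 11019 genes. Over the pathway lists, 11 genes were called in iCT against vehicle, and 5 with no filter, 3 under array weights, 3 in a fit of only the groups compared, 2 with the replicate block and 4 to 31 without a library. In relapse against iCT 10 were called, and 5 with array weights, 6 with no variance trend, 2 in a fit of only the groups compared, 3 with the replicate block and 3 to 18 without a library. In relapse against vehicle 10 passed under array weights and 2 in the fit of only the groups compared, and 0 otherwise. The ratio tests kept their side of the threshold in every alternative run, which says nothing of stability, since groups this small could hardly pass after adjustment.

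Over all genes, 1060 were called in iCT against vehicle (365 higher, 695 lower) and 1071 in relapse against iCT (729 and 342). Median-of-ratios scaling gave 496 higher and 615 lower, and 490 and 514. Quantile normalization gave 526 and 570, and 431 and 420. Array weights gave 457, 971 and 603, and fits of only the groups compared gave 351, 612 and 252, for iCT against vehicle, relapse against vehicle and relapse against iCT. Precision weights gave 11 in relapse against vehicle, and 5 were called there without iCT mouse 1 and 1 with no filter or without vehicle mouse 4. Leaving out a library gave 569 to 2722 in iCT against vehicle (2722 without iCT mouse 2) and 529 to 1855 in relapse against iCT. The replicate block gave 197, 0 and 372, and equal mouse numbers did not pair the samples (correlation of same-numbered deviations -0.09 to 0.10). The cause of these shifts was not tested. Depth limits iCT mouse 1 most, and low genes such as Nlrc5 and H2-T22.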
